A study of Homo sapiens with 8 samples.

Results

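The 10 genes described here encode the bromodomain proteins BRD9 and BRD7 and the subunits that tell the forms of the human BAF (SWI/SNF) chromatin remodeling complex apart. They were chosen by name: BRD9, BICRA and BICRAL of the non-canonical complex (ncBAF), BRD7, PBRM1 and ARID2 of the PBAF complex, ARID1A and ARID1B of the canonical complex (cBAF), and the ATPases SMARCA2 and SMARCA4. All 10 are among the 60282 genes listed, and all 10 were abundant enough to be among the 14073 genes tested. Their RNA was measured in SK-UT-1, an established human uterine leiomyosarcoma cell line. The vehicle group received DMSO and the other group received TP-472, labelled a BRD9/7 inhibitor, at 5 µM for 48 h, with 4 libraries per group. No genetic change separates the groups, and a single line and a single dose and time were used here. The paper describes its experiments in general as having biological replicates, and the labels do not say whether these libraries came from separate cultures. If they did not, the p-values measure technical spread. The vehicle libraries held 32574716 to 36634184 counts and the TP-472 libraries 36246466 to 38545695.

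BAF complexes use the energy of ATP, through SMARCA4 or its paralogue SMARCA2, to slide or evict nucleosomes. Which form assembles depends on the subunits added: ARID1A or ARID1B gives cBAF, ARID2 with PBRM1 and BRD7 gives PBAF, and BICRA or BICRAL with BRD9 gives ncBAF. BRD9 and BRD7 each carry a bromodomain, a pocket that binds acetylated lysine and that inhibitors of this class occupy, so the mRNA levels given below do not measure whether the proteins were inhibited.

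The cell line label was compared with smooth muscle markers. Of 10 such genes, 7 had a mean above 1 CPM (the counts relative to library size after scaling by the TMM method of edgeR). CALD1, which encodes the actin-binding protein caldesmon, was the most abundant at 199.6 ± 15.3 CPM in vehicle (SD, n = 4). ACTA2, smooth muscle actin, was at 160.3 ± 16.7 CPM, whereas MYH11, ACTG2 and MYOCD, markers of mature smooth muscle, were near 0. Of the 5 endothelial markers, 0 had a mean over 1 CPM. Of the 6 leukocyte markers, CD3E had no counts in any library, while CD68 was at 7.53 ± 0.573 CPM in vehicle. Among 6 epithelial markers, 3 had a mean above 1 CPM. The highest in vehicle were KRT19, at 8.88 ± 1.78 CPM, and KRT18, at 7.39 ± 0.871 CPM.

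Vehicle replicate 3 stood apart from the other 7 libraries. Its median Spearman correlation with the other vehicle libraries, across genes, was 0.914, against 0.988 to 0.997 for each other library within its own group. Genes rich in G and C were over-represented in it: relative to the mean of all libraries its log2 level rose by 0.658 for each 10 percentage points of GC content, while the slopes of the other libraries lay between -0.18 and -0.032. Vehicle replicates 1 and 3 both leaned to long transcripts, with a rise of 0.366 and 0.290 on the log2 scale for each 10-fold increase in transcript length, against 0.044 and 0.060 in vehicle replicates 2 and 4. The TP-472 libraries had slopes of -0.149, -0.311, -0.314 and 0.013. Mitochondrially encoded mRNAs summed to 3058 and 3540 CPM in vehicle replicates 1 and 3, and to 2264 and 2133 CPM in vehicle replicates 2 and 4. In the TP-472 libraries they summed to 1774, 1663, 1577 and 2109 CPM, each below every vehicle library, so that this measure moved with the groups in the direction of 9 of the 10 estimates. MT-ND4 had a log2 fold change of -1.12 (edgeR adjusted p = 0.00756) and MT-CO1, the most abundant, of -0.67 (0.0188), whereas MT-CO3 had 0.094 (0.498). The part of this shift in the results was not tested. These traits touch the 10 genes, whose GC content (of the longest transcript) runs from 40.4% (PBRM1) to 68.6% (BICRA) and whose longest transcripts have a median of 6795.5 bases, against 3512.5 bases over all genes tested. The fold change of each of the 10 genes is therefore also given without vehicle replicate 3, and without vehicle replicates 1 and 3 together, which was added after seeing the data.

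A promoter was listed in RefSeq (GRCh38.p14) for 9 of the 10 genes, as a window from 250 bases before to 50 bases after each start. ARID2 had none listed. The windows of both inhibitor targets and of the 2 genes that were differentially expressed are shown, for each gene the one with the most CpG dinucleotides. Capitals mark GGGCGG, the core letters of a GC box, on either strand.
BRD9: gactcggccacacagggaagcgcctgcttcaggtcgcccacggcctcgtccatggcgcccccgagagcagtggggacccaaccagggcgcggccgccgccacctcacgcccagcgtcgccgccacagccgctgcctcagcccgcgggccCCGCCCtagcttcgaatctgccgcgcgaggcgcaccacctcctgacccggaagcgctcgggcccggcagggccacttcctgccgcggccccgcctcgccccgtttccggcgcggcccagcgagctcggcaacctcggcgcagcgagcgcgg
BRD7: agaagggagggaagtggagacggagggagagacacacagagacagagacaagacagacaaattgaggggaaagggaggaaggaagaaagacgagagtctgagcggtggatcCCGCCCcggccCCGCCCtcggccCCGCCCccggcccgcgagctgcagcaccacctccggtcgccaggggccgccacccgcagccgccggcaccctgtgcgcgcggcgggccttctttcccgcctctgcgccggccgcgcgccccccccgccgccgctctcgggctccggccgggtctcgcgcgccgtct
ARID1A: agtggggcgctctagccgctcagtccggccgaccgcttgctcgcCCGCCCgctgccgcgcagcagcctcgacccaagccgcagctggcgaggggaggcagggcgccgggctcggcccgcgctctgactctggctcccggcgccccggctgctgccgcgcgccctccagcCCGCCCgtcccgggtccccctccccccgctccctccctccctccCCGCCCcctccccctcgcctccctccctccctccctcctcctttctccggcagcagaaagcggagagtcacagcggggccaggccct
ARID1B: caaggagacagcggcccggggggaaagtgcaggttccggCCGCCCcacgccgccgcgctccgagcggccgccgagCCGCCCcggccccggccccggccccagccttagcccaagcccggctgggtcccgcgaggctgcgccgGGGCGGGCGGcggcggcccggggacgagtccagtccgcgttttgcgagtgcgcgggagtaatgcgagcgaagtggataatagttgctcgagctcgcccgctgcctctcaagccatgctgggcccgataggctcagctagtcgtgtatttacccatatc
The BRD9 window is chr5:892752-893051 on the minus strand and holds 43 CpG and 1 GGGCGG. The BRD7 window, chr16:50368939-50369238 on the minus strand, holds 37 CpG and 3 GGGCGG. The ARID1A window, chr1:26695765-26696064 on the plus strand, holds 33 CpG and 3 GGGCGG. The ARID1B window, chr6:156777128-156777427 on the plus strand, holds 39 CpG and 4 GGGCGG, of which 1 pair overlaps. These windows were chosen for their CpG, so their counts are not compared with other promoters. Over all 19 windows listed for the 9 genes, the CpG count ran from 3 to 55, with a median of 31, against a median of 14 over the 35116 promoters listed. GGGCGG was present in 13 of the 19 windows and in 45% of all promoters. CACGTG, an E-box read on both strands, was found in 1 of the 19 windows, 1 of PBRM1, and in 7.26% of all promoters. TTTC, any pair of bases and TTTC again, the core of an interferon response element, on either strand, was found in 1 window, of SMARCA2, and in 3.57% of all promoters. A match of letters does not show that a factor binds.

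ARID1A and ARID1B of cBAF, ARID2 of PBAF and the ATPase SMARCA2 passed the test and were lower with TP-472. BRD9 and BRD7 themselves did not pass it. ARID1A and ARID1B were the 2 genes of the 10 that were differentially expressed, meaning an edgeR quasi-likelihood adjusted p (Benjamini-Hochberg, over all genes tested) below 0.05 together with more than a 1.5-fold difference. Over all genes tested the share was 26.9%, and 14.9% were differentially expressed and lower. Adjusted p alone was below 0.05 for 4 of the 10, the former 2 with ARID2 and SMARCA2, all lower, against 36.3% of all genes tested in either direction and 19.1% lower. With 10 genes, 2 is below the share called in either direction and above the share called lower, and no test of this count was made. In direction, 9 of the 10 estimates were negative and 1 positive, and 51.8% of all genes tested had a negative estimate. The median log2 fold change was -0.62 over the 10 and -0.026 over all genes tested. The median over the 10 was -0.49 without vehicle replicate 3 and -0.30 without vehicle replicates 1 and 3. Without vehicle replicate 3 the estimate of BRD9 also turned positive, at 0.058. The groups did not overlap for 5 of the 10 genes (ARID1A, ARID1B, ARID2 and SMARCA2, lower, and BRD7, higher), against 45.4% of all genes tested. Of all genes tested, 21.6% were separated and lower with TP-472. In RNA from whole cultures, fewer cells of a kind and less RNA per cell cannot be told apart.

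**Figure D1:**
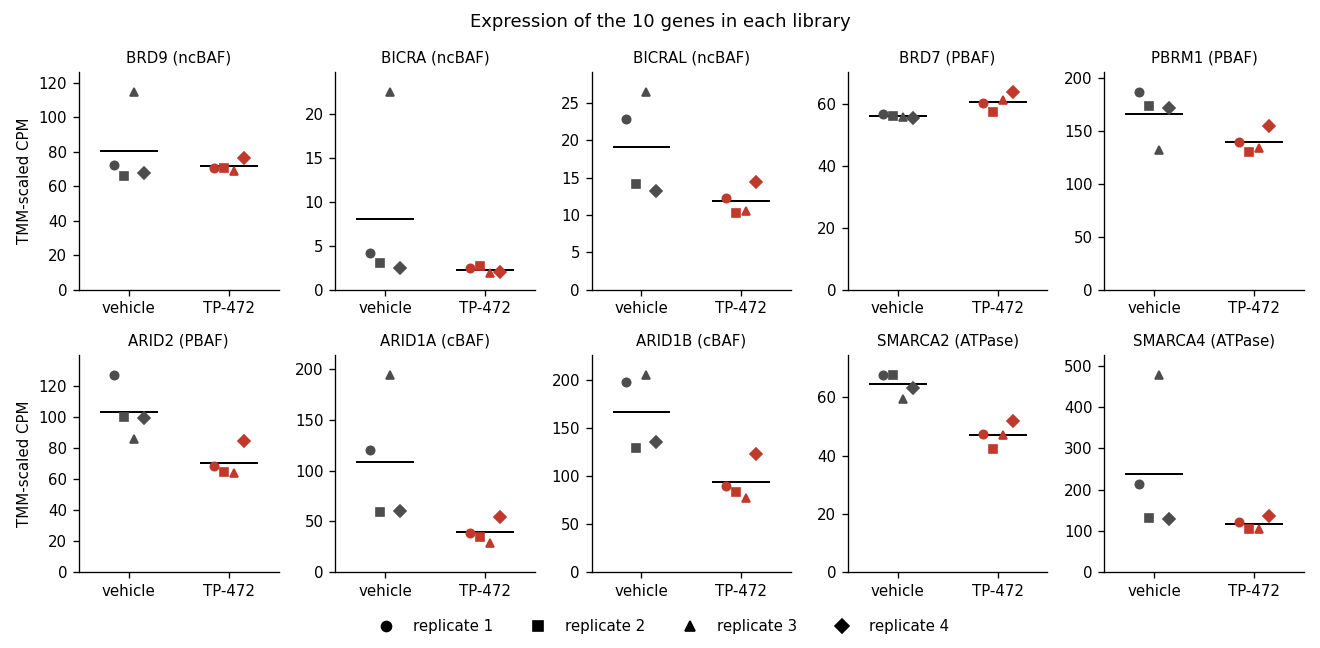
TMM-scaled CPM (vertical axes, from 0) of each of the 10 genes in the 4 vehicle and 4 TP-472 libraries, 1 point per library with its shape giving the replicate number, and the group mean as a bar. Vehicle replicate 3 lies above the rest of its group for BRD9 (115 CPM) and BICRA (22.5 CPM), while the 4 TP-472 points of ARID1A lie below all 4 vehicle points.

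BRD9, the acetyl-lysine reader of ncBAF and the main target of TP-472, did not pass the test at the mRNA level. The gene (ENSG00000028310.18) lies on chromosome 5 at 850291 to 892824, minus strand, in GENCODE release 29 on GRCh38. It overlaps ZDHHC11 on the same strand, where the split of reads from any shared sequence rests on salmon's estimate, and TRIP13 on the opposite strand. Opposite-strand overlaps are also annotated for other genes of the 10, such as PBRM1 with GNL3 and SMIM4. The methods describe strand-specific libraries while the labels do not mention strand. Without strand, reads from any exon sequence shared with such partners cannot be told apart. The overlaps are of whole gene spans, introns included, and whether exons overlap was not examined. Vehicle replicates 1 to 4 had 72.1, 66.1, 115 and 67.8 CPM of BRD9, and the TP-472 replicates, in the same order, had 70.7, 70.3, 68.9 and 76.1 CPM. Vehicle replicate 3 was the only high library, and the other 7 lay between 66.1 and 76.1 CPM. The log2 fold change was -0.16 (SE 0.179, 95% interval -0.57 to 0.24, edgeR adjusted p = 0.486), and the exact permutation test gave p = 0.857. Without vehicle replicate 3 the sign turned, to 0.058 with an interval of -0.079 to 0.195 (edgeR adjusted p = 0.440), and without vehicle replicates 1 and 3 it was 0.092 (-0.038 to 0.223). Both of these intervals lie within a 1.5-fold change. The protein-coding genes whose log2 levels tracked BRD9 most closely over the 8 libraries were the interleukin-17 receptor gene IL17RA (Pearson r = 0.997), the transcription factor gene KLF13 (0.993) and CAPN15 (0.993). All 3 were highest in vehicle replicate 3, as BRD9 was: IL17RA had 55.1 CPM there and 24.9 to 29.5 CPM in the other libraries.

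BICRA and BICRAL, the paralogous scaffold subunits specific to ncBAF, gave lower estimates with TP-472 but did not pass the adjusted threshold. BICRA (ENSG00000063169.10, chromosome 19, 47608196 to 47703277, plus strand) was the least abundant of the 10 genes and was at 4.21, 3.02, 22.5 and 2.50 CPM in the vehicle replicates and 2.43, 2.65, 1.91 and 2.01 CPM in the TP-472 replicates. In counts, TP-472 replicate 3 held 69 reads and vehicle replicate 3 held 777. The vehicle mean of 8.06 ± 9.65 CPM (SD, n = 4) therefore had a spread larger than itself, and the TP-472 values overlapped vehicle replicate 4. The difference was -1.84 on the log2 scale (SE 0.683, edgeR adjusted p = 0.0621, exact permutation p = 0.0571). It shrank to -0.53 without vehicle replicate 3 (edgeR adjusted p = 0.0547) and to -0.30 without vehicle replicates 1 and 3 (edgeR adjusted p = 0.224). BICRAL (ENSG00000112624.12, chromosome 6, 42746958 to 42868560, plus strand) was at 22.8, 14.1, 26.4 and 13.2 CPM in vehicle and at 12.2, 10.3, 10.5 and 14.3 CPM with TP-472. Vehicle replicates 1 and 3 were high, and TP-472 replicate 4 was above vehicle replicates 2 and 4. The log2 fold change of BICRAL was -0.69 (SE 0.243, edgeR adjusted p = 0.0519, exact permutation p = 0.0857), -0.49 without vehicle replicate 3 and -0.20 without both. None of the 3 ncBAF genes was thus differentially expressed in these 3 fits.

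BRD7, the PBAF bromodomain protein and the second labelled target of TP-472, was slightly higher in each TP-472 library. It (ENSG00000166164.15, chromosome 16, 50313487 to 50368934, minus strand) was at 57.0, 56.3, 56.0 and 55.6 CPM in vehicle and at 60.4, 57.5, 61.3 and 63.9 CPM with TP-472. The vehicle libraries agreed to within 1.5 CPM, vehicle replicate 3 included, and the lowest TP-472 library was above the highest vehicle library. The means were 56.2 ± 0.583 and 60.8 ± 2.65 CPM (SD, n = 4 each), which is 0.11 on the log2 scale (SE 0.0856, 95% interval -0.081 to 0.31). The exact permutation test gave p = 0.0286, which is the smallest it can return for 4 against 4, and 23.8% of all genes tested were likewise separated and higher. The edgeR adjusted p was 0.324. Without vehicle replicate 3 the log2 fold change was 0.11 (edgeR adjusted p = 0.127), and without vehicle replicates 1 and 3 it was 0.12 (0.1247). The sign turned, to -0.063, when the trend of each library with GC content was removed (edgeR adjusted p = 0.651). The genes most like BRD7 over the 8 libraries were KIFBP (Pearson r = 0.964), MAPRE2 (0.959), which encodes a microtubule end-binding protein, and the zinc finger gene ZNF708 (0.952).

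Of the other PBAF subunits, ARID2 was lower with TP-472 and PBRM1 depended on the fit. ARID2, the DNA-binding subunit that defines PBAF (ENSG00000189079.17, chromosome 12, 45729665 to 45908040, plus strand), was at 127, 100.2, 85.6 and 99.1 CPM in vehicle and at 68.6, 64.8, 63.6 and 84.4 CPM with TP-472. The groups did not overlap, although TP-472 replicate 4 came within 1.5 CPM of vehicle replicate 3. Its log2 fold change was -0.55 (SE 0.148, edgeR adjusted p = 0.0197, exact permutation p = 0.0286), just short of the 1.5-fold limit, so that ARID2 passed the test but was not counted as differentially expressed. Without TP-472 replicate 1, 2 or 3 its edgeR adjusted p was 0.0581, 0.0652 and 0.0668. Without vehicle replicate 3 it was -0.63 (edgeR adjusted p = 0.00161) and was counted, and without vehicle replicates 1 and 3 it was -0.51 (edgeR adjusted p = 0.00226) and was not. PBRM1, which carries an array of bromodomains (ENSG00000163939.18, chromosome 3, 52545352 to 52685917, minus strand), was at 187, 173, 132 and 172 CPM in vehicle and 139, 130.0, 134 and 155 CPM with TP-472. Vehicle replicate 3, the low one here, lay inside the TP-472 range, and the other 3 vehicle libraries lay above all 4 TP-472 libraries. On the log2 scale the difference was -0.25 (SE 0.128, edgeR adjusted p = 0.152). Without vehicle replicate 3 it was -0.34 (edgeR adjusted p = 0.00308) and without both it was -0.31 (edgeR adjusted p = 0.00500), each under the 1.5-fold limit. Of all genes tested, 57.0% had an adjusted p below 0.05 without vehicle replicate 3, and 56.3% without vehicle replicates 1 and 3. With the GC trend removed it was -0.43 (edgeR adjusted p = 0.00215), but with the length trend removed it was -0.10 (edgeR adjusted p = 0.481).

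ARID1A and ARID1B, the mutually exclusive ARID-domain subunits of cBAF, fell with TP-472. ARID1A (ENSG00000117713.20, chromosome 1, 26693236 to 26782110, plus strand) was at 120.4, 59.6, 195 and 60.3 CPM in vehicle and at 38.6, 34.8, 28.3 and 54.8 CPM with TP-472. Vehicle replicates 1 and 3 were well above vehicle replicates 2 and 4, and TP-472 replicate 4 was the closest to them. The means of 109 ± 64.0 and 39.1 ± 11.3 CPM (SD, n = 4 each) correspond to a 2.78-fold lower level, a log2 fold change of -1.48 (SE 0.395, 95% interval -2.37 to -0.58, edgeR adjusted p = 0.0194, exact permutation p = 0.0286). It was -1.03 without vehicle replicate 3 (edgeR adjusted p = 0.0101), and -0.62 without vehicle replicates 1 and 3 (edgeR adjusted p = 0.0229), so that the size more than halved on the log2 scale while the call was kept. Without TP-472 replicate 1, 2 or 3 the adjusted p went above 0.05, up to 0.0610 with edgeR. With the replicate number added as a block, ARID1A had -1.32 (edgeR adjusted p = 0.0589) and was not called.

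ARID1B (ENSG00000049618.24, chromosome 6, 156776020 to 157210779, plus strand) was at 197, 129, 205 and 135 CPM in vehicle and at 89.9, 83.6, 77.0 and 123 CPM with TP-472. The groups did not overlap, and vehicle replicates 1 and 3 were again the high pair. ARID1B was 1.78-fold lower, with means of 166 ± 40.2 and 93.4 ± 20.5 CPM (SD, n = 4 each) and a log2 fold change of -0.83 (SE 0.206, 95% interval -1.30 to -0.37, edgeR adjusted p = 0.0143, exact permutation p = 0.0286). It was -0.72 without vehicle replicate 3 (edgeR adjusted p = 0.00806). Without vehicle replicates 1 and 3 it was -0.50 (edgeR adjusted p = 0.0185), under the 1.5-fold limit, and the call was lost. The share of differentially expressed genes over all genes tested was 25.5% and 23.3% in those 2 fits, in which 3 and 1 of the 10 genes were called.

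Of the ATPases that drive the complex, SMARCA2 was lower with TP-472 and SMARCA4 did not pass the test. SMARCA2 (ENSG00000080503.24, chromosome 9, 1980290 to 2193624, plus strand) was at 67.8, 67.6, 59.5 and 63.3 CPM in vehicle and at 47.3, 42.4, 47.0 and 51.7 CPM with TP-472. Both groups were tight, with an SD of 3.94 and 3.81 CPM, and they did not overlap. The log2 fold change of -0.45 (SE 0.101) had the smallest edgeR adjusted p of the 10 genes, 0.00909, but amounted to a 1.37-fold lower level and was not counted as differentially expressed. It moved little when libraries were left out, to -0.49 without vehicle replicate 3 (edgeR adjusted p = 3.88e-04) and -0.48 without vehicle replicates 1 and 3 (edgeR adjusted p = 6.66e-04). With the replicate number added as a block, SMARCA2 had -0.46, but its edgeR adjusted p was 0.0505. SMARCA4 (ENSG00000127616.18, chromosome 19, 10960825 to 11079426, plus strand) was at 214, 132, 478 and 129.5 CPM in vehicle and at 120.4, 104.8, 104.8 and 137 CPM with TP-472. Vehicle replicates 1 and 3 were high, and TP-472 replicate 4 exceeded vehicle replicates 2 and 4. The log2 fold change of SMARCA4 was -1.03 (SE 0.395, edgeR adjusted p = 0.0685, exact permutation p = 0.0857), and it was -0.44 without vehicle replicate 3 (edgeR adjusted p = 0.0544) and -0.16 without vehicle replicates 1 and 3 (edgeR adjusted p = 0.193). In absolute log2 units, BICRA, ARID1A and SMARCA4, which had the largest estimates in the full fit, also moved most when both libraries were left out.

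**Figure D2:**
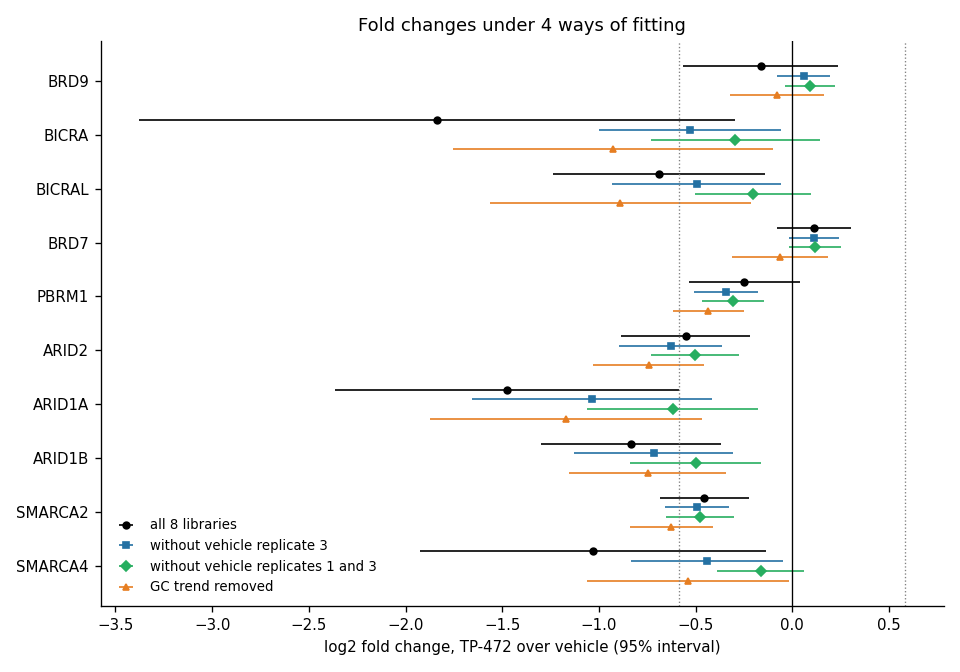
Log2 fold change of TP-472 over vehicle (horizontal axis) for each of the 10 genes, with 95% intervals from edgeR, in 4 fits: all 8 libraries, without vehicle replicate 3, without vehicle replicates 1 and 3, and with the GC trend removed; dotted lines mark 1.5-fold. SMARCA2 runs from -0.63 to -0.45 over the 4 fits, while BICRA runs from -1.84 to -0.30.

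The height of vehicle replicate 3 followed the GC content of the gene. Its level relative to the median of the other vehicle libraries was 7.45-fold for BICRA (68.6% GC), 3.63-fold for SMARCA4 (61.4%) and 3.23-fold for ARID1A (57.5%). ARID1B (53.7% GC) and BRD9 (53.4%) were at 1.52-fold and 1.69-fold. BRD7, ARID2 and PBRM1, with 43.1%, 40.8% and 40.4% GC, were at 0.994-fold, 0.854-fold and 0.761-fold. Over the 10 genes, which share 1 library, the Pearson correlation of the log2 deviation with GC content was 0.943 (Spearman 0.952), and over the 13970 tested genes with a GC value it was 0.702 (Spearman 0.746). BICRAL stood off this order, at 1.88-fold with 44.0% GC. Vehicle replicate 3 was outside the range of the other vehicle libraries for 9 of the 10 genes, as it was for 86.9% of all genes tested. When each library's trend with GC content was removed, 5 of the 10 genes (BICRAL, ARID2, ARID1A, ARID1B and SMARCA2, all lower) were differentially expressed, against 28.3% of all genes tested. Adding the omission of vehicle replicate 3 left 3 of the 10, ARID2, ARID1A and ARID1B, and 25.3% of all genes tested. By adjusted p alone, the 2 fits with the GC offset called 6 of the 10 genes each, against 52.4% and 58.2% of all genes tested. In the former fit ARID1A had a log2 fold change of -1.17 (edgeR adjusted p = 0.0121), SMARCA4 -0.54 (0.0778) and BICRA -0.93 (0.0585).

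**Figure D3:**
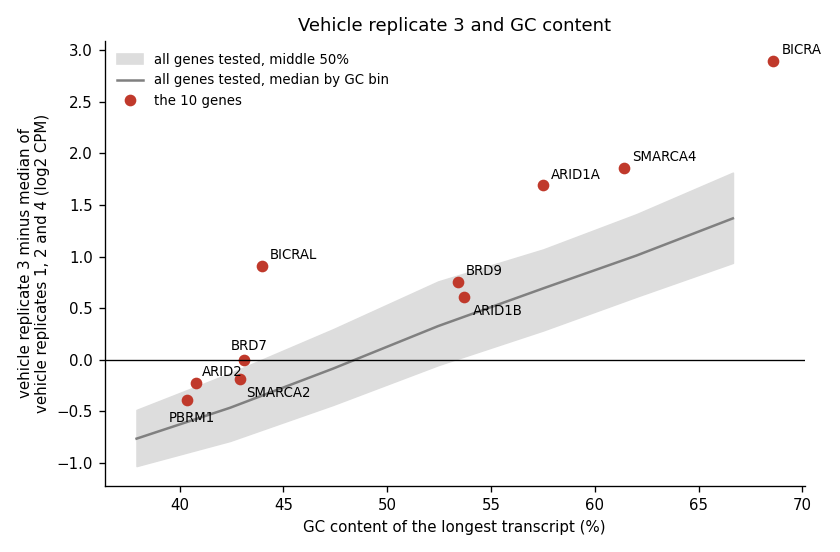
Log2 deviation of vehicle replicate 3 from the median of vehicle replicates 1, 2 and 4 (vertical axis) against the GC content of the gene's longest transcript in percent (horizontal axis), for the 10 genes as labelled points and for all genes tested as a line of medians by GC bin with a band for the middle 50%. The 10 genes rise with GC content, from PBRM1 at 40.4% to BICRA at 68.6%.

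Vehicle replicate 1 and TP-472 replicate 4 ranked high for most of the 10 genes. Vehicle replicate 1 was above vehicle replicates 2 and 4 for 10 of the 10 genes, against 40.9% of all genes tested. The margin over vehicle replicate 2 was small for SMARCA2 (67.8 against 67.6 CPM) and BRD7 (57.0 against 56.3 CPM). TP-472 replicate 4 was the highest of its group for 9 of the 10, all but BICRA, against 34.9% of all genes tested. Removing each library's trend with transcript length gave a log2 fold change of -1.31 for ARID1A (edgeR adjusted p = 0.0261), -0.61 for ARID1B (0.0176), -0.37 for ARID2 (0.0280), -0.32 for SMARCA2 (0.0207) and 0.21 for BRD7 (0.0601). ARID1A and ARID1B were the 2 genes called in that fit, in which 25.9% of all genes tested were. What these trends contribute to the differences between the groups was not tested.

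Ratios within pairs of paralogues, which do not depend on how libraries are scaled, were compared for 4 pairs. They are not free of a library's trend with GC content where the 2 genes of a pair differ in it. BICRA has 68.6% GC and BICRAL 44.0%, while ARID1A has 57.5% and ARID1B 53.7%. What this trend contributes to the ratios was not tested. The log2 ratio of ARID1A to ARID1B was -0.71, -1.11, -0.074 and -1.16 in the vehicle libraries and -1.22, -1.27, -1.44 and -1.17 in the TP-472 libraries, each by replicate number. The groups met without overlapping, and vehicle replicates 2 and 4 were close to the TP-472 libraries. The TP-472 mean was lower by -0.51 in the log2 ratio, with an exact permutation p of 0.0286, and 0.114 after Benjamini-Hochberg adjustment over the 4 pairs, so the adjusted value did not pass. The difference was -0.28 without vehicle replicate 3 and -0.14 without vehicle replicates 1 and 3. The BRD9 to BRD7 log2 ratio was 0.34, 0.23, 1.03 and 0.29 in vehicle and 0.23, 0.29, 0.17 and 0.25 with TP-472. It differed by -0.24 (exact permutation p = 0.143, adjusted 0.286), by -0.051 without vehicle replicate 3, the only library away from the rest, and by -0.024 without vehicle replicates 1 and 3. BICRA to BICRAL differed by -0.57 (exact permutation p = 0.429, adjusted 0.571) by -0.041 without vehicle replicate 3 and by -0.084 without both. SMARCA2 to SMARCA4 differed by 0.36 (exact permutation p = 0.686, adjusted 0.686), and with the opposite sign, by -0.086 and -0.31, without vehicle replicate 3 and without both.

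**Figure D4:**
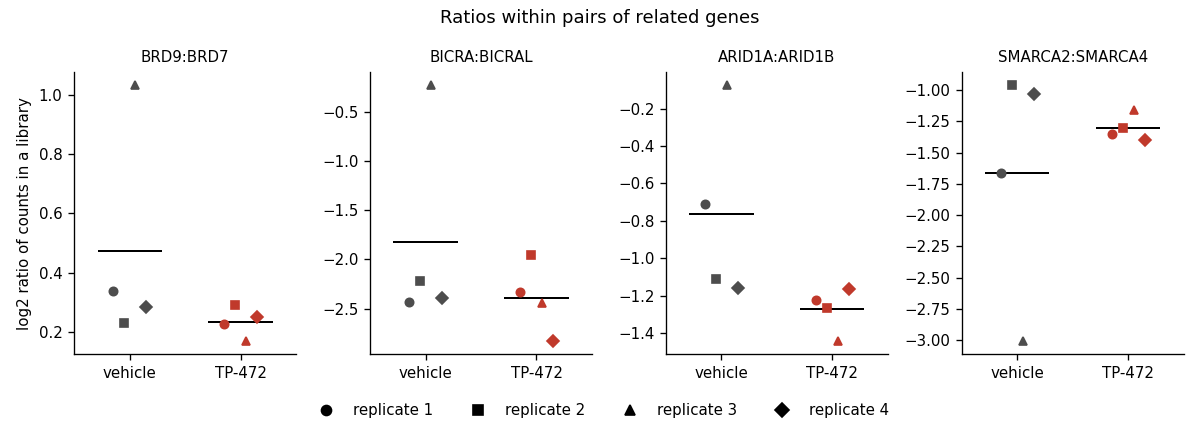
Log2 ratio of the counts of 2 paralogues (vertical axis) in each vehicle and TP-472 library, 1 point per library, for BRD9 to BRD7, BICRA to BICRAL, ARID1A to ARID1B and SMARCA2 to SMARCA4, with group means as bars. Vehicle replicate 3 is farthest from its group in each pair, and the ARID1A to ARID1B ratios of the TP-472 libraries lie at or below -1.17.

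Per kilobase of exon, PBRM1 and SMARCA4 had the highest means in vehicle, and PBRM1 had the highest with TP-472. In vehicle the levels were 17.2 ± 2.45 CPM per kb for PBRM1, 15.1 ± 10.4 for SMARCA4, 8.50 for ARID2, 8.37 for BRD9, 6.83 for ARID1A and 6.62 for BRD7. ARID1B (3.73), SMARCA2 (3.47), BICRAL (2.79) and BICRA (1.07) followed. SMARCA4 came first, at 17.4 CPM per kb, when vehicle replicate 2 or 4 was left out. Without vehicle replicate 3 SMARCA4 was at 10.0 and BICRA at 0.432, while PBRM1 was at 18.4. Only BRD7 and ARID1B, among neighbours in this order, had ranges over the 4 libraries that did not overlap. With TP-472 the levels were 14.5 ± 1.14 for PBRM1, 7.47 for BRD9, 7.40 for SMARCA4, 7.16 for BRD7 and 5.80 for ARID2, then 2.53 for SMARCA2, 2.46 for ARID1A, 2.09 for ARID1B, 1.73 for BICRAL and 0.30 for BICRA. PBRM1 was separated from BRD9, ARID2 from SMARCA2 and BICRAL from BICRA, and the other neighbours were not separated. The order depends on the length used. With the length of the longest transcript in place of all exons, SMARCA4 came first in both groups, at 41.2 CPM per kb in vehicle and 20.2 with TP-472. BRD9 and BRD7, whose ranges overlap with TP-472 over all exons, were then at 14.7 and 11.3 with TP-472 and did not overlap, and BRD7 overlapped ARID1B (8.64), from which it is separated over all exons.

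Related genes gave the setting for these values. Among 17 tested of 19 other BAF subunits, 0 were differentially expressed and higher and 2 were lower, with a median log2 fold change of -0.19. The shares called over all genes tested were 12.0% higher and 14.9% lower, and the 2 of 17 subunits called make 11.8%. SMARCC2, a core scaffold subunit, went from 209 ± 58.4 to 86.9 ± 5.83 CPM (SD, n = 4 each), or -1.26 on the log2 scale (SE 0.184, edgeR adjusted p = 0.00136). SMARCD3, a core subunit of muscle forms of the complex, had -0.88 (SE 0.158, edgeR adjusted p = 0.00351). BCL7B, an accessory subunit, was higher by 0.51 (SE 0.122, edgeR adjusted p = 0.0120) but under the 1.5-fold limit. The subunits SMARCC1, with a log2 fold change of -0.16 (edgeR adjusted p = 0.183), and SMARCB1, with -0.57 (0.0720), were not among those called.

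Among 34 tested of 37 other bromodomain genes, 0 were differentially expressed and higher and 7 were lower, with a median of -0.49. The share called, 20.6%, lies between the 14.9% of all genes tested called lower and the 26.9% called in either direction. These 7 were BRD3, CECR2, SP110, TRIM66, BRWD3, SP100 and ZMYND8. BRD3, a BET reader of acetylated histones, had the largest change of them, from 56.1 ± 29.9 to 16.8 ± 1.68 CPM (SD, n = 4 each) and -1.74 on the log2 scale (SE 0.322, edgeR adjusted p = 0.00396). CECR2, a partner of ISWI remodelers, had a log2 fold change of -1.07, SP110 of -0.87 and SP100, a nuclear body protein gene, of -0.72. BRD2, another BET gene, went the other way, by 0.45 (SE 0.110, edgeR adjusted p = 0.0140), under the 1.5-fold limit. Among 17 tested of 17 ATPase genes of other remodelers, 0 were higher and 3 were lower: CHD3, one of the alternative ATPases of the NuRD complex, with a log2 fold change of -1.08, CHD6 with -0.76 and CHD2 with -0.75. CHD4, another NuRD ATPase gene, had 315 ± 9.92 CPM in vehicle and a log2 fold change of 0.017 (edgeR adjusted p = 0.894). For CHD3, CHD6 and CHD2 the edgeR adjusted p-values were 0.00105, 0.00110 and 9.25e-04, the share called was 17.6%, between the same 2 shares of all genes tested, and the median of the 17 genes was -0.37. SMARCC2 had -1.06 without vehicle replicate 3 and -0.94 without vehicle replicates 1 and 3, BRD3 had -1.32 and -1.08, and CECR2 had -0.83 and -0.65. TRIM66 (-0.41) and ZMYND8 (-0.39) came under the 1.5-fold limit without vehicle replicates 1 and 3. The other called genes of the 3 lists stayed beyond it, between -0.87 and -0.64. Without vehicle replicates 1 and 3 the medians of these 3 lists were -0.038, -0.19 and -0.13.

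**Figure D5:**
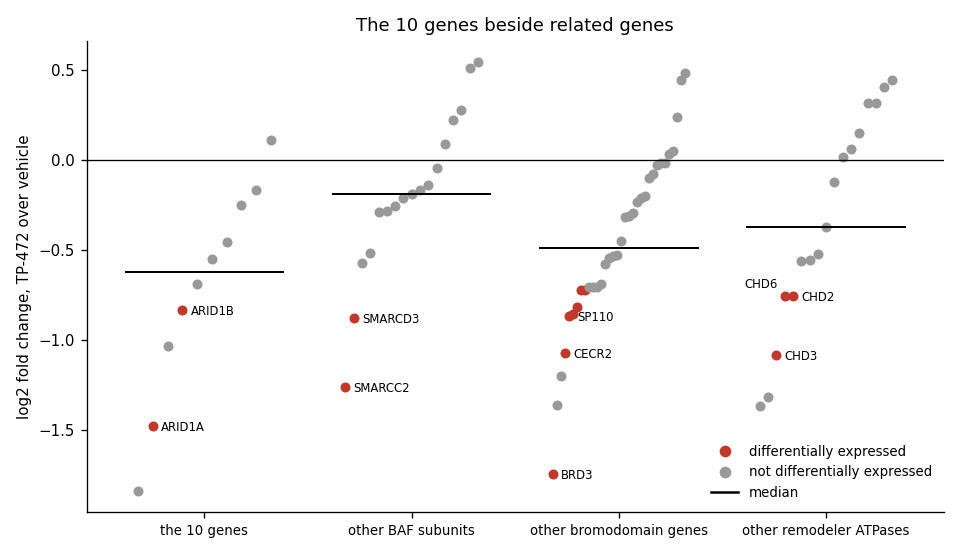
Log2 fold change of TP-472 over vehicle (vertical axis) of each tested gene in 4 lists, 1 point per gene in order of its value, red where differentially expressed, with the list median as a bar. The medians are -0.62 for the 10 genes, -0.19 for other BAF subunits, -0.49 for other bromodomain genes and -0.37 for other remodeler ATPases, and no red point lies above 0.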

How the data were processed

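RNA from SK-UT-1 cells given TP-472 or DMSO vehicle was sequenced in 4 libraries each. Per the paper's methods, libraries were strand specific, and reads were quantified with salmon and summed to GENCODE 34 genes. The labels name a TruSeq RNA kit without saying that it keeps strand. The submitters' processing notes name Salmon 1.4.0 and GRCh38. The values deposited by the authors are estimated counts, neither normalized nor filtered, and 13.8% to 23.2% of them per library were not whole. They were rounded here.

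Genes above 1 CPM in 4 or more libraries were kept, scaled by TMM and compared in edgeR 4.0.16 (R 4.3.3) by its quasi-likelihood F test, with Benjamini-Hochberg adjustment and no covariates. A gene was differentially expressed below 0.05 and beyond 1.5-fold. The methods name general tests of 2 groups for all experiments, but no differential expression tool for these libraries. Permutation tests were exact and two-sided, over 70 assignments (SciPy 1.17.1), with 0.0286 as their lower limit. Ratios used log2 of the count plus 0.5. GC content and lengths came from GENCODE 29 and covered 99.3% of the genes tested. GC and length offsets were lowess trends (span 0.3) per library.

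The 10 genes, the related lists and the markers were chosen with earlier results of these data known. All 10 are named. Of each related list, genes differentially expressed are named, up to 6 per direction in order of size, with others given after their values were seen. As most alike, the 3 protein-coding genes with the highest correlation are named. Alternatives were DESeq2 1.42.0, limma-voom (limma 3.58.1), other scalings and filters, unrounded counts, robust estimation, a replicate block, GC and length offsets, protein-coding genes only, other fold limits and left-out libraries. The fits without vehicle replicates 1 and 3, and with the GC offset without vehicle replicate 3, were added after seeing the data. Replicates differed by more than counting noise, with a mean chi-square of at least 12.8 per gene. The scripts were tested on simulated data. The 10 genes held 69 to 16528 counts, so counting error is small beside the spread between libraries for most of them. It is not for BRD7 in vehicle or for BICRA with TP-472.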

Additional observations from a re-analysis of the deposited data

Results flagged for a closer look

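In 4 of 38 groups of 4 values examined (the CPM of the 10 genes and the paralogue ratios among them), 1 library lay far from the other 3. Chance flags about 1 in 20 such groups. All 4 concern vehicle replicate 3. BRD9 was at 115 CPM there, against 66.1 to 72.1 CPM in the other vehicle libraries, and BICRA was at 22.5 CPM, against 2.50 to 4.21 CPM. The BRD9 to BRD7 log2 ratio was 1.03 in that library, against 0.23 to 0.34 in the others. The BICRA to BICRAL log2 ratio was -0.23, against -2.43 to -2.22.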

How the results depend on the processing

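ARID1A was called in 20 and ARID1B in 23 of 25 alternative fits. BICRAL was called in 8 (DESeq2, RLE and upper-quartile scaling, no filter, GC offset, protein-coding genes only, and without vehicle replicate 2 or 4), ARID2 in 5 (the 3 GC offset fits, without vehicle replicate 3 and without TP-472 replicate 4), SMARCA4 in 4 (DESeq2, no filter, and without vehicle replicate 2 or 4), BICRA in 3 of its 24 (no filter, and without vehicle replicate 2 or 4) and SMARCA2 in 2 (GC offset, with and without the block). BRD9, BRD7 and PBRM1 were not called in any. Of the 10 genes, 4 were called with DESeq2 (which gave no adjusted p for BICRA and called 5555 of all genes, 23.3% of those with an adjusted p), 5 without a filter (5090 of all genes, 15.3%), 5 with the GC offset, 4 with the GC offset and block (26.1% of all genes), 1 without vehicle replicates 1 and 3, 0 in edgeR's test against 1.5-fold (7 of the 10, and 47.8% of all genes, had an unadjusted p under 0.05 in the test against no change) and 4 by adjusted p alone. That 1.5-fold test called 1123 of all genes, 1 other BAF subunit, 1 bromodomain gene and 1 remodeler ATPase. Bromodomain calls were 11 without a filter, 11 with the GC offset and 12 by adjusted p alone. Remodeler ATPase calls were 8 with the GC offset, 7 with the GC offset and block, 1 with the length offset, 6 without vehicle replicates 1 and 3, 7 with the GC offset without vehicle replicate 3, and 6 by adjusted p alone. BRD7 turned to -0.063 with the GC offset and -0.049 with the block added. BRD9 turned to 0.058 without vehicle replicate 3, 0.092 without vehicle replicates 1 and 3 and 0.041 with the GC offset without vehicle replicate 3. SMARCA2 to SMARCA4 turned to -0.086 without vehicle replicate 3. With longest transcripts, 2 and 5 neighbouring levels were separated in vehicle and TP-472. The cause of each of these changes was not tested.

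Leaving out each library in turn gave 2690 to 4223 genes, 1 to 5 of the 10, 5 to 13 bromodomain genes, 3 to 7 remodeler ATPases and 2 other BAF subunits. BRD9 ran from -0.246 to 0.058 on the log2 scale. Differences of log2 ratios ran from -0.64 to -0.28 for ARID1A to ARID1B, -0.77 to -0.041 for BICRA to BICRAL, -0.32 to -0.051 for BRD9 to BRD7 and -0.086 to 0.60 for SMARCA2 to SMARCA4. Separated neighbours ran from 1 to 5 in vehicle and 3 to 4 with TP-472.

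Replicate numbers are the same in both groups but did not pair the libraries. Correlations of deviations between libraries of the same number were -0.055, 0.116, -0.171 and -0.177 for numbers 1 to 4, and 1 of 8 libraries correlated best with its own number. With the replicate block, 3055 genes (21.7%) and 1 of the 10, ARID1B (edgeR adjusted p = 0.0406), were called, and ARID1A had an adjusted p of 0.0589. SMARCA2 had an edgeR adjusted p of 0.0505 in that fit and no longer passed the test.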

Other observations

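Among the smooth muscle markers, DES, which encodes the intermediate filament desmin, was at 3.25 ± 0.203 CPM in vehicle and 0.629 ± 0.169 CPM with TP-472 (SD, n = 4 each), or -2.36 on the log2 scale (edgeR adjusted p = 1.89e-04). LMOD1, a smooth muscle leiomodin gene, was lower by -1.84 on the log2 scale (edgeR adjusted p = 0.00401) and TAGLN, an actin-binding protein gene, by -0.67 (0.00397). ACTA2 was lower by -0.55 (0.00426), under the 1.5-fold limit. CALD1 had -0.059 (0.646), CNN1 0.13 (0.696) and SMTN -0.68 (0.149). The 10 markers summed to 439 to 524 CPM in the vehicle libraries and 371 to 380 CPM in the TP-472 libraries. DES rested on at most 126 counts in a library and LMOD1 on at most 123.

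Of the 6 epithelial markers, 3 had a mean above 1 CPM. KRT18, a simple-epithelium keratin also found in many cultured lines, rose from 7.39 ± 0.871 to 15.6 ± 1.47 CPM (log2 fold change 1.08, edgeR adjusted p = 7.26e-04), whereas KRT19 fell from 8.88 ± 1.78 to 4.93 ± 1.15 CPM (-0.85, edgeR adjusted p = 0.0151). KRT8 had 0.52 (0.0959). The list summed to 18.2 to 24.0 CPM in vehicle and 21.1 to 27.8 CPM with TP-472. Of the 6 leukocyte markers, 1 was above 1 CPM, the lysosomal protein gene CD68, at 7.53 ± 0.573 and 10.4 ± 1.48 CPM (log2 fold change 0.47, edgeR adjusted p = 0.0307, under the 1.5-fold limit). The 5 endothelial markers together stayed below 1 CPM in every library.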
